A study of Mus musculus with 2 samples.

Results

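The cytosolic ribosomal protein genes of the mouse, with the paralogs that carry their names, were followed in total RNA of the newborn adrenal gland. Members were the genes whose symbol in the alignment-free transcript tables marks a protein of the small (Rps) or large (Rpl) ribosomal subunit, a P stalk protein (Rplp0, Rplp1, Rplp2) or Rpsa, and that have at least 1 transcript annotated as protein_coding. Kinases named Rps6k and genes named as pseudogenes (-ps) were left out. The rule found 86 members among 55536 annotated genes. Of these, 77 were main copies, 31 for the small and 46 for the large subunit, and 8 were paralogs, set here against the main copy they are named after. The remaining member, Rps19bp1, is named for a protein that binds Rps19 and is no ribosomal protein by its name. The series held 1 group, adrenal glands taken from male mice of the hybrid B6CASTF1/J at an age of 4 days, with 2 biological replicates and no second condition. B6CASTF1/J animals are F1 hybrids of C57BL/6J and CAST/EiJ, and reads from both strains' alleles were quantified against the mm10 reference, which is C57BL/6J. The part this plays in any value was not tested. The sample characteristics number the 2 males differently, but a line shared by both samples repeats 1 of the numbers, and both carry the same donor label. With 1 library a replicate and no second group, p-values between the libraries set their difference against counting error only, not against the spread between animals.

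The ribosome is built from ribosomal RNAs and a fixed set of proteins, most of them present once per particle, and the small subunit decodes the messenger RNA while the large subunit joins amino acids. Most mammalian ribosomal proteins are made from a single intron-bearing gene, which has left many intron-less processed pseudogenes in the genome, and a few have a second functional gene whose product can take the place of the main copy in muscle, germ cells or other tissues. Ribosomal protein messenger RNAs start with a terminal oligopyrimidine (TOP) tract, a C followed by a run of C or T, through which mTOR signalling and Larp1 control their translation.

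The gene tables held 32231301 and 30292851 expected counts in replicates 1 and 2, and 3 counts, the limit that a count of 0 allows, correspond to 0.0931 and 0.0990 CPM. Intervals and limits cover counting error only. All 5 cortex markers and all 5 chromaffin markers were expressed, the cortex list summing to 4240 TPM in replicate 1 and 3440 TPM in replicate 2. Liver markers summed to 232 and 6085 TPM, erythroid markers to 2413 and 4425 TPM and skeletal muscle markers to 637 and 1176 TPM in replicates 1 and 2, so that replicate 2 stood apart by these lists. All 10 liver, 8 erythroid and 9 muscle markers were above 0 in both libraries, and their part in the members' values was not tested. In such bulk samples fewer cells of a type and less RNA per cell cannot be told apart.

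Every main copy was detected at 1 TPM or more. TPM scales counts by effective transcript length to a fixed total per library, and is the scale used here to compare genes. Together the 86 members took 1.77% (95% Wilson interval 1.77 to 1.78) of gene counts in replicate 1 and 1.82% (1.81 to 1.82) in replicate 2. They took 3.34% ± 0.152 of all gene TPM and 8.70% ± 0.0383 of the TPM of protein-coding genes (SD, n = 2). The median main copy stood at 404 TPM in replicate 1 and 428 TPM in replicate 2. In the alignment-free tables the members took 7.92% of all TPM, and the median main copy stood at 941 TPM. The TPM of the 2 kinds of table is not on 1 scale. The median protein-coding gene had a log2 ratio of gene tables over alignment-free tables of -0.89. Of protein-coding TPM alone, the members took 10.2% ± 0.0452 in the alignment-free tables (SD, n = 2). Of the 77 main copies, 73 reached 100 TPM, a level that 549 of 22028 protein-coding genes reached, and 47 were among the 100 highest protein-coding genes. Ranks of the main copies were nearly the same in both libraries (Spearman's rho over 77 genes 0.99, a description across genes that share libraries).

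Members of the small subunit were spread from 205 to 931 TPM by their means. Rps27, a zinc-binding protein of the small subunit, was the highest at 907 and 955 TPM in replicates 1 and 2. Rps14, a protein of the platform, followed at 804 and 822 TPM, then Rps24 at 659 and 713 TPM, Rps28 at 646 and 679.9 TPM and Rps29 at 591 and 659 TPM. Rps24 and Rps28 overlapped across the libraries, as did Rps28 and Rps29, so their order is not fixed. At the low end, Rps12 stood at 191 and 219 TPM, Rps23 at 219 and 230.2 TPM, Rps13 at 237 and 245 TPM, Rps7 at 227 and 268 TPM and Rps3 at 244 and 255 TPM. Rps12 and Rps23 overlapped across the libraries, as did Rps23 and Rps7, and as did Rps13, Rps7 and Rps3. The order within each of these sets is not fixed by the data.

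Members of the large subunit ranged more widely, from 33.5 to 1251 TPM. Rpl41, the smallest ribosomal protein, was the highest member in both libraries, at 1207.5 and 1293.7 TPM. Rplp1 of the P stalk stood at 789 and 874 TPM, Rpl13a at 771 and 840.3 TPM and Rpl23a at 719 and 755 TPM. Rplp1 and Rpl13a overlap across the libraries. At the other end, Rpl27 had 35.1 and 32.0 TPM, Rpl5 33.6 and 40.1 TPM, Rpl12 80.25 and 97.05 TPM, Rpl27a 88.3 and 96.4 TPM and Rpl36a 123 and 128 TPM. The same 5 genes stood at 345 to 1028 TPM in the alignment-free tables, where all 5 were above their gene table values. That direction is not particular to them. The median log2 ratio of gene tables over alignment-free tables was -1.22 for main copies and -0.89 for protein-coding genes. The highest main copy stood 35.9-fold and 40.4-fold above the lowest within replicates 1 and 2, and 11.9-fold and 12.1-fold in the alignment-free tables.

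**Figure D1:**
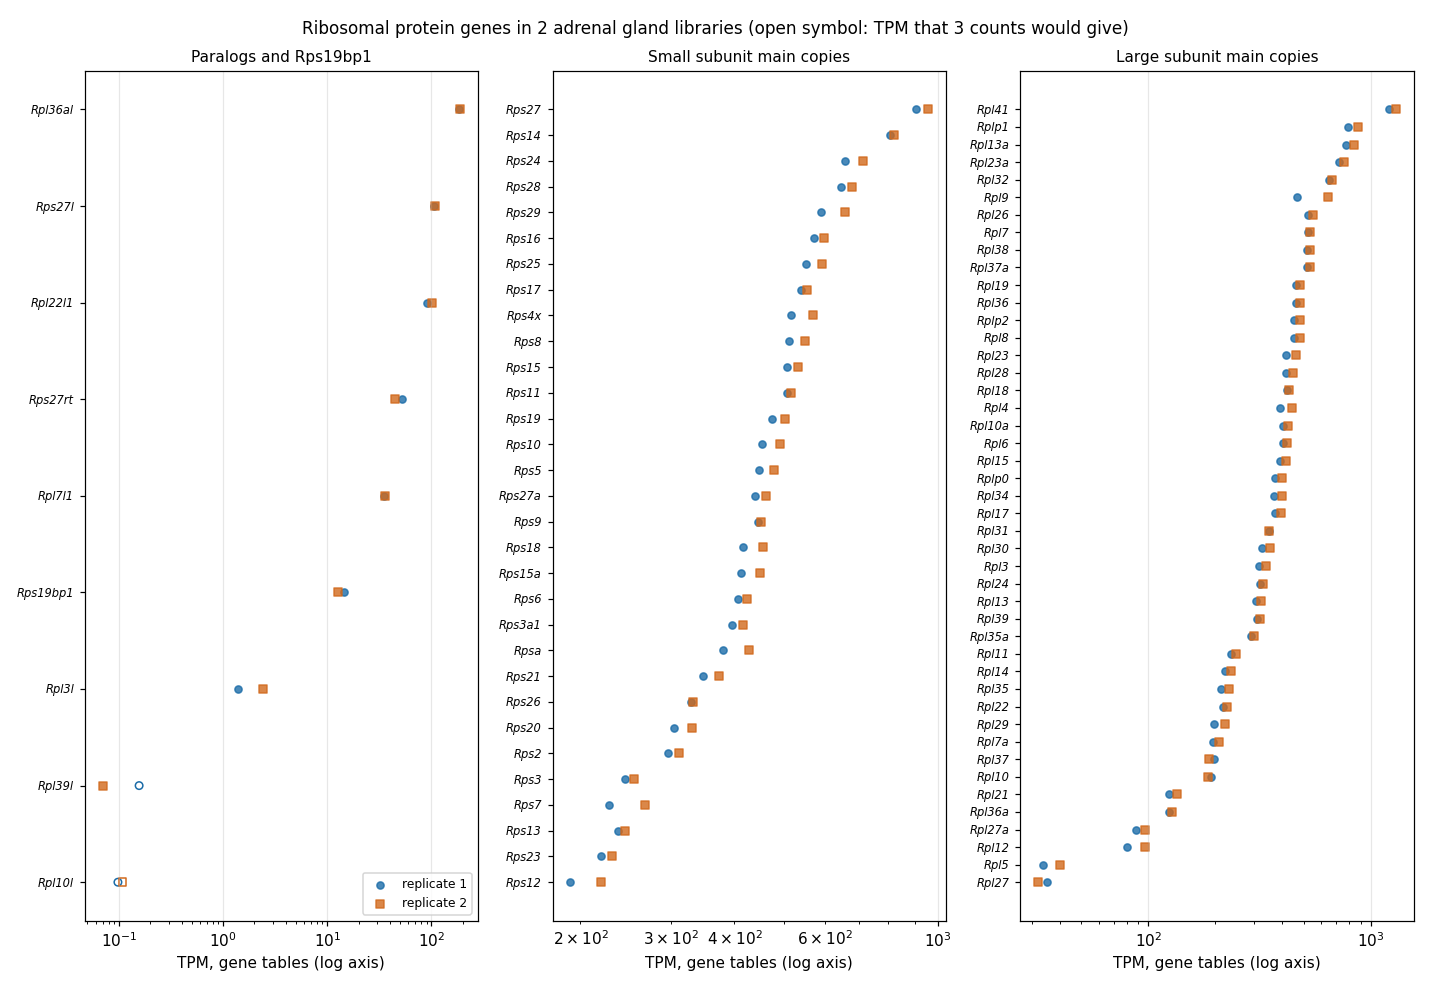
TPM in the gene tables on a log axis for each paralog and Rps19bp1 (left), the 31 small subunit main copies (middle) and the large subunit main copies but 1 of the 46 (right), with 1 circle for replicate 1 and 1 square for replicate 2. Small subunit main copies span 205 to 931 TPM by their means and large subunit ones 33.5 to 1251 TPM, with a tail down to Rpl5 and Rpl27, while paralogs reach from 0 counts (open symbols, drawn at the TPM of 3 counts) to Rpl36al at 182 and 188 TPM.

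The median of the small subunit was 444 and 460.1 TPM and that of the large subunit 371 and 398 TPM in replicates 1 and 2. The log2 ratio of these medians, small over large, was 0.23 ± 0.04 (SD, n = 2). In the alignment-free tables the medians were 969 ± 9.08 TPM for the small and 934 ± 4.09 TPM for the large subunit, and their log2 ratio was 0.05. The difference between the subunits was thus smaller in the alignment-free tables.

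By place in the ribosome, the proteins of the P stalk, which recruits elongation factors, were Rplp0 at 371 and 398 TPM, Rplp1 as above and Rplp2 at 453 and 483 TPM. Both exceeded Rplp0 in each library in the gene tables, but the order turned round in the alignment-free tables, where Rplp1 had 900.3 TPM, Rplp2 934 TPM and Rplp0 1116 TPM. With its pseudogene copy Gm8730 (171 TPM) added in the gene tables, Rplp0 stood at 556 TPM, above Rplp2. Of the 5S RNP proteins, which bind Mdm2 when assembly fails, Rpl11 had 235 and 248 TPM and Rpl5 was among the lowest members. The 9 genes at the exit tunnel and its rim spanned 222 to 737 TPM, from Rpl22 to Rpl23a (from Rpl19 at 375 TPM to Rpl23a at 1553 TPM in the alignment-free tables), with Rpl4 at 392 and 442 TPM and Rpl39, a small protein lining the tunnel, at 308 and 317 TPM. The 5 genes around the decoding site and the mRNA entry channel spanned 225 to 520 TPM, from Rps23 to Rps15. By contrast, Rps23 was the highest of them in the alignment-free tables at 1539 TPM, with Rps15 at 1044 TPM and Rps3 the lowest at 278 TPM. The 10 genes mutated in the human Diamond-Blackfan anaemia spanned 36.9 to 686 TPM, from Rpl5 to Rps24, and their median of 401 TPM was near the median of all main copies. Rps19, the gene most often mutated in that disease, had 474 and 501 TPM.

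Proteins of the cytosolic ribosome whose symbols the rule does not match were at similar levels. Fau, which encodes a ubiquitin-like protein fused to a small subunit protein, had 547 and 549 TPM, and Rack1, a scaffold on the small subunit, 317 and 333 TPM. All 78 mitochondrial ribosomal protein genes were detected, at a median of 28.6 TPM and at most 97.5 TPM, the level of Mrpl33, with Mrpl52 next at 78.8 TPM. The 7 elongation factor genes had a median of 202 TPM, led by Eef1a1 at 2598 and 2798 TPM and Eef2 at 605 and 614 TPM. Among 18 other messenger RNAs known for TOP tracts, a list that includes several of those genes, the median was 217 TPM, and Tpt1 had 1113 and 1196 TPM. The 24 ribosome assembly genes had a median of 16.9 TPM, led by Npm1 at 155 and 162 TPM and Ncl at 100.2 and 119 TPM. The 12 genes that control ribosomal protein mRNAs or respond to their products had a median of 21.3 TPM, with Eif4ebp2 at 40.2 and 39.7 TPM and Larp1 at 32.8 and 36.3 TPM the highest. The median over all 18160 genes kept by the count filter was 7.36 TPM.

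The 8 paralogs fell into 3 ranges. Rpl36al, Rps27l, Rpl22l1, Rps27rt and Rpl7l1 were expressed well above 1 TPM in both libraries, Rpl3l was just above it, and Rpl39l and Rpl10l had at most 1 count. All 8 together summed to 467 and 481 TPM in replicates 1 and 2, against 31447 and 33531 TPM for the main copies.

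Rpl36al (chr12:69182731-69184083, minus strand, mm10) had 182 and 188 TPM, against 123 and 128 TPM for Rpl36a (chrX:134585654-134588062). It was the only paralog listed above its main copy in the gene tables, by a log2 ratio of 0.56 ± 0.0075 (SD, n = 2). The order turned round in the alignment-free tables, where Rpl36al had 343 and 317 TPM and Rpl36a 468 and 496 TPM, a log2 ratio of -0.55 ± 0.14. It also turned round when the pseudogenes of Rpl36a were counted with it, at -0.999 ± 0.106. The coding sequences of the pair differ at 39 of 321 bases, and none of the differences changes the encoded residue. The first 120 bases are shown because the differing bases are what can tell reads of the genes apart, with the bases where Rpl36al differs from Rpl36a in capitals (spliced coding sequences of GENCODE M21, 5′ to 3′; their spans are chr12:69182816-69183136 on the minus strand and chrX:134585717-134587957 on the plus strand). The processed pseudogene Rpl36a-ps2 (chr3:145879020-145879340, plus strand) is identical to Rpl36a over its whole coding sequence.
Rpl36al: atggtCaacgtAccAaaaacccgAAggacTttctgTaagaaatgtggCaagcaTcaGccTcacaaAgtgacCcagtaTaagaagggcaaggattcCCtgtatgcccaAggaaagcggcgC
Rpl36a: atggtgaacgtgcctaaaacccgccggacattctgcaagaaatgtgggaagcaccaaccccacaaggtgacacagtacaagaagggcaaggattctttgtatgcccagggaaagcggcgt
Rpl36a-ps2: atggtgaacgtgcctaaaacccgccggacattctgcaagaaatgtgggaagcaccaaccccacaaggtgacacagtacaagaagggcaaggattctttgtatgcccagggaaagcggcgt

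Rpl22l1 (chr3:28805436-28807424, plus strand), the paralog of Rpl22 that is known to rise when Rpl22 is lost, had 90.1 and 100.2 TPM, against 217 and 227 TPM for Rpl22. It thus made up 29.4% and 30.6% of the pair in replicates 1 and 2, with a log2 ratio of -1.22 ± 0.06 (SD, n = 2), and of -0.87 ± 0.12 in the alignment-free tables. The pair encodes proteins that differ at 31 of 121 aligned residues. The Rpl22 transcript held no exact 100-base stretch of another gene (0%), while 40.6% of such stretches of Rpl22l1 occurred in 1 other gene, which stood at 1.36 TPM.

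Rps27 has a pair of paralogs of different kinds. Rps27l (chr9:66946086-66949516, plus strand), known in human cells as a target of p53, had 105.9 and 109 TPM, against 907 and 955 TPM for Rps27. It made up 10.5% and 10.3% of the pair, and the log2 ratio was -3.11 ± 0.02 (SD, n = 2). Rps27rt (chr9:114982366-114982739, minus strand) had 52.6 and 44.6 TPM in the gene tables and was listed at 0 in the alignment-free tables of both libraries. The posterior SD that the gene table gives for its count was 13.3% of the count in replicate 1, against 0.852% for Rps27. The coding sequences are shown because they separate these cases. Rps27l differs from Rps27 at 61 of 255 bases, marked by capitals, but at 3 of 84 residues, while Rps27rt does not differ at any base. All are spliced coding sequences of GENCODE M21 in mm10, 5′ to 3′, spanning chr9:66946175-66949357 (plus strand) for Rps27l, chr9:114982453-114982707 (minus) for Rps27rt and chr3:90212725-90213615 (minus) for Rps27.
Rps27l: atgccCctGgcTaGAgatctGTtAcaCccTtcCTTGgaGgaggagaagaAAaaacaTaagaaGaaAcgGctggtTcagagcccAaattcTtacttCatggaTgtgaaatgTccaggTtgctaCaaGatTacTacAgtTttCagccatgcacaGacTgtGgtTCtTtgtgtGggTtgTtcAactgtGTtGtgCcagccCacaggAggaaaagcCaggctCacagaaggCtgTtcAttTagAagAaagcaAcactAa
Rps27rt: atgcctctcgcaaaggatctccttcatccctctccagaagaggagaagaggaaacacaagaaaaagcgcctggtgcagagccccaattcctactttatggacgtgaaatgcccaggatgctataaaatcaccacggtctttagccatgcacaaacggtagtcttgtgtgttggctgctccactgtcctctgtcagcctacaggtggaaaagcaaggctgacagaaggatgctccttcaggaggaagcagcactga
Rps27: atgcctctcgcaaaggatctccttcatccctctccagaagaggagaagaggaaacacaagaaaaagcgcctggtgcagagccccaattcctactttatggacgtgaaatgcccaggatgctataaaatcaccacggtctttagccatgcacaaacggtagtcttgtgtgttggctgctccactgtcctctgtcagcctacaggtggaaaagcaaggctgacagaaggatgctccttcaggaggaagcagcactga

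Of all stretches of 100 bases in the Rps27rt transcript, 89.5% occur exactly in Rps27 or in Gm17241, and for Rps27l the share was 0%. Values of Rps27rt are therefore uncertain.

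Rpl7l1 (chr17:46773907-46782672, minus strand) had 35.0 and 35.9 TPM, against 523 and 531 TPM for Rpl7, and made up 6.27% and 6.34% of the pair. It is the most distant paralog of the set, with 44.7% of aligned residues identical.

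Rpl3l (chr17:24727820-24736143, plus strand), which takes the place of Rpl3 in mouse skeletal and heart muscle, had 1.4 and 2.44 TPM from 59 and 93 counts, against 315 and 339 TPM for Rpl3. It made up 0.442% and 0.715% of the pair, with a log2 ratio of -7.47 ± 0.49 (SD, n = 2). Scaled for library size, the log2 ratio of replicate 1 over replicate 2 was -0.71 (exact binomial test, Benjamini-Hochberg adjusted p = 0.0127 over 18160 genes). The muscle markers, led by Acta1 at 222 and 390 TPM and Mylpf at 140.1 and 281 TPM, had a median log2 ratio of -0.81, and all 9 of them passed the test in the same direction. Their part in the Rpl3l values was not tested. In the alignment-free tables Rpl3l stood at 5.74 and 4.55 TPM, higher in replicate 1. The start of the coding sequence shows how far the paralog has moved from Rpl3, with differing bases in capitals. The pair differs at 310 of 1209 aligned bases, and 0% of the 100-base stretches of Rpl3l occur in another gene. The spliced coding sequences span chr17:24727884-24736056 (plus strand) and chr15:80077850-80083326 (minus strand) in mm10.
Rpl3l: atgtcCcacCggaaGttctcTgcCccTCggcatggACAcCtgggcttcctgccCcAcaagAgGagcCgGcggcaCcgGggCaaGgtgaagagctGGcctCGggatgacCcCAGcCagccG
Rpl3: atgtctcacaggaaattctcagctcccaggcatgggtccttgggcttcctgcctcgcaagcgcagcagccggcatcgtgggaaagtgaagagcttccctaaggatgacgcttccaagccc

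Rpl10l and Rpl39l are made in male germ cells of the mouse. Rpl10l (chr12:66283379-66284401, minus strand) had 0 counts in both libraries and was also at 0 in the alignment-free tables. With 3 counts per library as the limit (0.0980 and 0.109 TPM), it stood at least 1946-fold lower than Rpl10 in replicate 1 and at least 1703-fold lower in replicate 2. Rpl39l (chr16:10170226-10174911, plus strand) had 0 counts in replicate 1 and 1 count in replicate 2, against 308 and 317 TPM for Rpl39. Of the 9 germ cell markers none reached 1 TPM. The spermatid genes Prm1, Prm2 and Tnp1 were listed at 0 in both libraries, as were 3 others, and the list summed to 0.590 and 0.560 TPM. Rps19bp1, which is no paralog, had 14.4 and 12.7 TPM, against 474 and 501 TPM for Rps19.

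**Figure D2:**
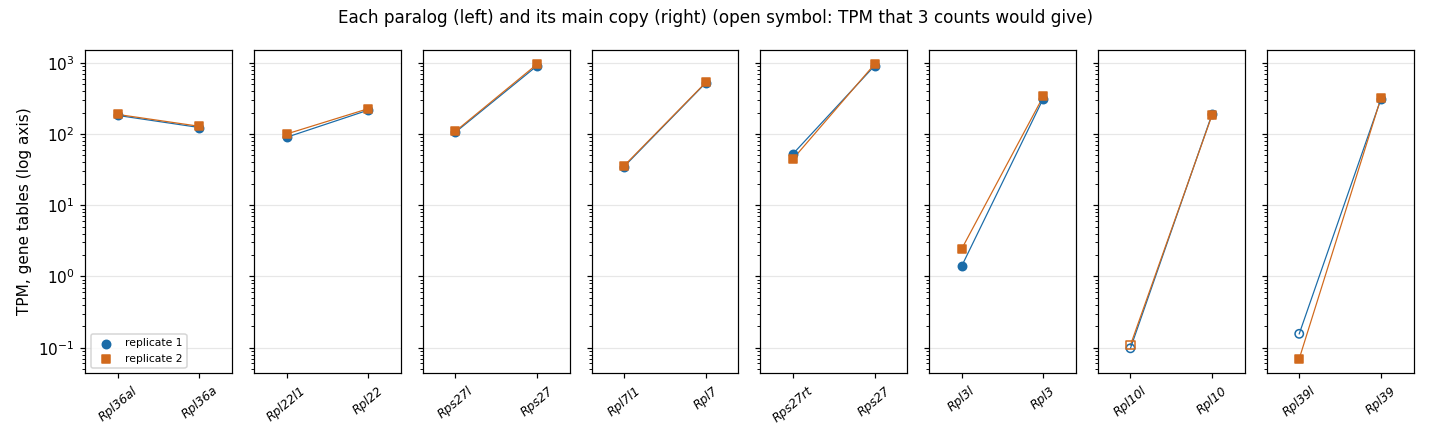
TPM in the gene tables on a log axis for each paralog (left point of a panel) and its main copy (right point), 1 line per library, with circles for replicate 1 and squares for replicate 2. Rpl36al lies above Rpl36a, and the other pairs slope upward towards the main copy, most steeply for Rpl10l and Rpl39l. Counts of 0 are drawn as open symbols at the TPM of 3 counts, and the 1 count of Rpl39l in replicate 2 as a filled symbol at its own TPM.

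Pseudogenes share their sequence with the main copies, and 70 of 77 main copies shared at least 1 exact stretch of 100 bases with an annotated pseudogene outside the member list. These 455 pseudogenes, called copies here, summed to 10372 and 11148 TPM in the gene tables and made up 57.0% ± 0.156 of the TPM of all 10237 genes annotated as processed pseudogenes, whether transcribed or not (SD, n = 2). In the gene tables the copies exceeded the gene they derive from for 13 of 77 main copies, and in the alignment-free tables for 5.

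Several of the main copies listed lowest had copies listed above them. Rpl27 had 33.5 ± 2.17 TPM and its copies 357 TPM, of which Rpl27-ps3 and Gm11518 (chr11:94037218-94037628, minus strand) held exactly the same 178 TPM each. In the alignment-free tables Rpl27 had 562 TPM and both copies were listed at 0. Rpl5 had 36.9 ± 4.57 TPM, against 414 ± 26.2 TPM for Gm15500 (chr7:114705217-114706235, minus strand). Here both kinds of table listed the copy above Rpl5, at 604 TPM for Gm15500 and 394 TPM for Rpl5 in the alignment-free tables. Rps23 had 225 ± 7.89 TPM and Rps23-ps1 (chr3:37714740-37715164, plus strand) 639 ± 27.5 TPM, while the alignment-free tables gave 1539 TPM to Rps23 and 0 to the copy. Rpl12 with Gm10275 (413 TPM), Rpl27a with Gm7536 (397 TPM) and Rpl37 with Rpl37rt (481 TPM) had the copy above the gene in the gene tables and the copy well above 1 TPM in the alignment-free tables too. There Gm10275 (513 TPM) was above Rpl12 (345 TPM), while Gm7536 (432 TPM) was below Rpl27a (1028 TPM) and Rpl37rt (665 TPM) below Rpl37 (1036 TPM). Rpl28 with Rpl28-ps1 (544 TPM) and Rpl36a with Rpl36a-ps2 (249 TPM) were listed like Rps23, with these copies at 0 in the alignment-free tables. Over the bases that align to the coding sequence, 7 of these copies, Gm11518 included, were identical to the main copy, and Rpl37rt differed at 1 base. The first 120 coding bases of Rpl27 (chr11:101442725-101445487, plus strand, spliced) and the matching bases of Gm11518 are shown because no read from within them can separate the genes, and there is no capital because there is no difference.
Gm11518: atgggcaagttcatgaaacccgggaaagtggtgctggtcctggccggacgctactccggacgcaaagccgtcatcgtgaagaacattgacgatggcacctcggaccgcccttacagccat
Rpl27: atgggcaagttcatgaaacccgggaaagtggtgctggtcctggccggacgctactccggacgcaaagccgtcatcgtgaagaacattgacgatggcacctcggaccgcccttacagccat

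Copies at 10 TPM or more in the gene tables numbered 80 and belonged to 55 members. Of these, 37 were under 1 TPM in the alignment-free tables and 43 were not. Those under 1 TPM had a median longest transcript of 411 bases and those above it of 635 bases, and 14 of 37 against 3 of 43 were identical to a transcript of the member over the aligned part. Which of the copies are transcribed was not tested.

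Across genes, the log2 ratio of the gene tables over the alignment-free tables had a median of -1.22 for the 77 main copies, against -0.89 for the 13265 protein-coding genes at 1 TPM or more in both. The median protein-coding gene sets the zero here, and 14 main copies (18.2%) lay over 2-fold below it and 2 (2.60%) over 2-fold above it, beside 0.648% and 0.475% of protein-coding genes. The 5 lowest were Rpl27 (-4.07), Rpl27a (-3.48), Rpl5 (-3.42), Rpl10 (-2.80) and Rps23 (-2.78), and the 5 highest Rpl36 (0.34), Rpl19 (0.33), Rplp1 (-0.11), Rps3 (-0.15) and Rpl17 (-0.31). When the TPM of copies was added to each main copy in both tables, 1 main copy remained over 2-fold below, Rpl10, and none over 2-fold above. The SD of the ratio over main copies was 0.75 without and 0.41 with the copies. Spearman's rho between the copies' share of the summed TPM and the log2 ratio was -0.55 without and 0.04 with the copies (77 genes, which share libraries and, in part, pseudogenes). The gene table TPM of the main copy enters both the share and the ratio without copies, so a negative rho is partly built in. With the percent of 100-base stretches that occur in other genes in place of the share, rho without the copies was -0.12. Of Rpl10, 91.6% of its 100-base stretches occur in other genes, and its 9 copies held 1.19 TPM, with Rpl10 at 191 and 185 TPM in the gene tables and 1323 and 1288 TPM in the alignment-free tables. With the copies added, the highest and lowest main copies were 6.26-fold and 6.97-fold apart within replicates 1 and 2, and the SD of log2 TPM over main copies was 0.50, against 0.91 without them and 0.63 in the alignment-free tables.

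**Figure D3:**
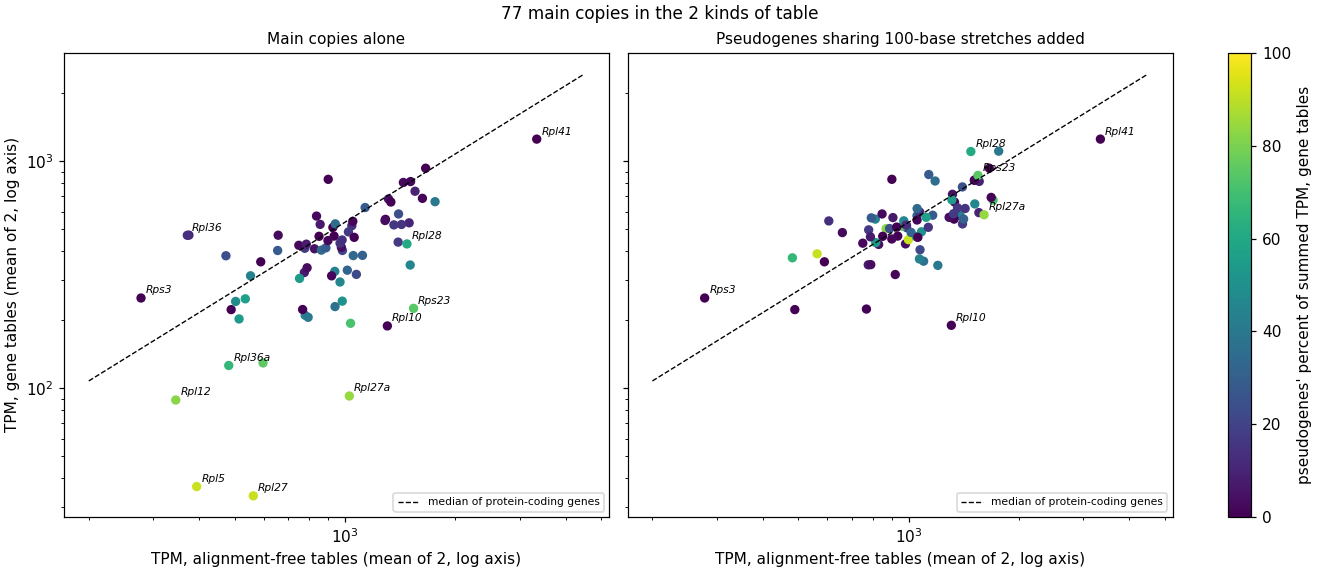
Mean TPM of 2 libraries for each of the 77 main copies in the gene tables (vertical, log axis) and in the alignment-free tables (horizontal, log axis), without (left) and with (right) the pseudogenes that share an exact 100-base stretch, coloured by the pseudogenes' percent of the summed TPM. The dashed line is the median ratio of protein-coding genes. Rpl27, Rpl5 and Rpl27a lie far below it on the left and near it on the right. Rpl12 lies less far below it on the left, though over 2-fold, and near it on the right, and Rpl10 stays below it in both.

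The rule took genes with a coding transcript, but part of their TPM was listed on other transcript types. The 86 members have 505 annotated transcripts. Of the members' TPM in the alignment-based transcript tables, protein_coding transcripts held 82.7% ± 0.181, retained introns 9.36% ± 0.0113, processed transcripts 4.12% ± 0.0791 and transcripts marked for nonsense-mediated decay 3.82% ± 0.113 (SD, n = 2). In the alignment-free tables these shares were 66.3% ± 0.131, 18.9% ± 0.0790, 11.6% ± 0.0270 and 3.16% ± 0.0246. Over 20% of the TPM lay outside protein_coding transcripts for 22 members in the alignment-based tables and for 38 in the alignment-free tables. These shares were not taken over all protein-coding genes, so whether they are particular to the members was not tested.

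The largest shares outside protein_coding transcripts in the alignment-based tables were those of Rps16 at 98.2% ± 0.0901, Rps26 at 97.0% ± 0.225, Rps20 at 96.7% ± 0.138 and Rpl35 at 96.4% ± 0.00115 (SD, n = 2). The transcripts behind these values were Rps16-203 (retained intron) at 336 and 349 TPM, Rps26-202 (retained intron) at 319 and 320.1 TPM, Rps20-201 (retained intron) at 219 and 265 TPM and Rpl35-203 (processed transcript) at 203 and 219 TPM. Rps16-203, Rps26-202 and Rpl35-203 also led in the alignment-free tables. For other members the tables disagreed about the type. Rps27-201, a coding transcript of 345 bases, held 895 and 945 TPM in the alignment-based tables and was listed at 0 in the alignment-free tables, which gave 1371 and 1430 TPM to the retained intron transcript Rps27-205. The paralog Rps27l showed the same pattern, with Rps27l-201 (coding) at 101.9 and 103.6 TPM in one and Rps27l-204 (processed transcript) at 247 and 230.4 TPM in the other. The paralog Rpl22l1 had 81.6% ± 1.43 of its TPM outside protein_coding transcripts in the alignment-based tables and 67.2% ± 4.01 in the alignment-free tables (SD, n = 2). The leading transcript differed between the kinds of table for 48 of the 84 members above 0 TPM in both. Shares by type within a gene are thus not fixed by these data, and no value here shows which transcripts are translated.

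**Figure D4:**
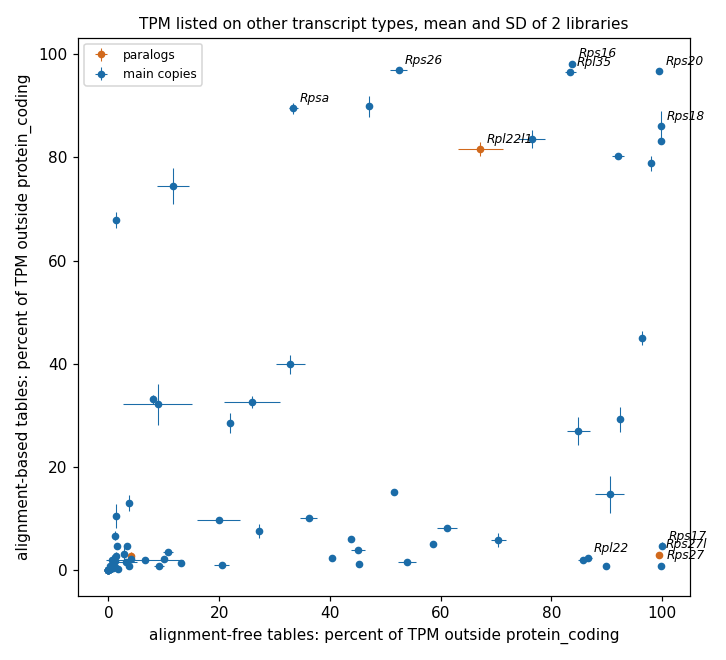
Percent of each member's TPM listed outside protein_coding transcripts in the alignment-based (vertical) and alignment-free (horizontal) tables, mean of 2 libraries with the SD as bars, for paralogs and main copies. Rps16, Rps20 and Rps18 are high in both, and Rps27 and Rps27l are at 0.930% and 3.06% in the alignment-based tables and at 99.7% and 99.5% in the alignment-free tables.

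The libraries were close for the members. Each gene's rounded counts were compared between the libraries with an exact two-sided binomial test against TMM library sizes, Benjamini-Hochberg adjusted over the 18160 genes kept. The test compares these libraries, not conditions. At an adjusted p under 0.05, 33.5% of all genes tested were called, 17.6% higher in replicate 1 and 15.9% higher in replicate 2. Of 84 members tested, 22 were called (26.2%), a share below that background, and of the 77 main copies 8 were called higher in replicate 1 and 11 higher in replicate 2. None of the 84 members was over 2-fold apart at an adjusted p under 0.05, against 3.99% of all genes tested, and none of the 28 members with an unadjusted p under 0.05 was. The median log2 ratio of replicate 1 over replicate 2 was 0.01 for the main copies, and the median size of the ratio was 0.03 for main copies, 0.09 for the 549 protein-coding genes at 100 TPM or more and 0.17 for all genes kept. Within 1.1-fold lay 73 of 77 main copies (94.8%), beside 43.1% of all genes kept. The genes kept had a median of only 7.36 TPM, and this share was not taken for genes at the level of the main copies. On the TPM scale 3 of 77 main copies were higher in replicate 1, and with TMM-scaled counts 42 were, so the direction of most members' small differences depended on the scaling.

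Rpl9, a large subunit protein, stood outside that band. It had 9888 counts and 465 TPM in replicate 1, against 12331 counts and 643 TPM in replicate 2, and a log2 ratio of -0.38 (exact binomial test, adjusted p = 2.4e-82). In the alignment-free counts the log2 ratio was -0.36, and it ranged from -0.41 to -0.36 over all settings tried. The 6 copies of Rpl9 summed to 1.28 ± 0.658 TPM in the gene tables (SD, n = 2). These copies summed in the alignment-free tables to 11.5 TPM in replicate 1 and 69.7 TPM in replicate 2, apart in the same direction as Rpl9, and their part in its difference was not tested. The next main copies higher in replicate 2 were Rpl5 (log2 ratio -0.17, adjusted p = 0.00187) and Rpl12 (-0.17, adjusted p = 0.000911), by the same exact test. Those higher in replicate 1 were Rpl27 (0.26, adjusted p = 0.00761), Rpl10 (0.14, adjusted p = 9.67e-05) and Rpl37 (0.12, adjusted p = 0.0102), again by the exact binomial test. Each of these 5 was among the 14 main copies over 2-fold below the median protein-coding gene in the comparison of tables. Rpl12 was at -0.07 in the alignment-free counts (adjusted p = 0.106, exact binomial test). There Rpl27 was at 0.14, Rpl10 at 0.07, Rpl37 at 0.10 and Rpl5 at -0.16, each still called. Rpl37 did not pass with total counts (adjusted p = 0.0726, exact binomial test) or spike-in counts (adjusted p = 0.0692, exact binomial test) as library size. The test takes expected counts as observed reads for every gene. Gm11518, identical to the coding sequence of Rpl27, had a posterior SD of 760 on 1844 counts in replicate 1, which limits the call of Rpl27. Rpl7l1 was also higher in replicate 1 (0.13, adjusted p = 0.0313, exact binomial test). Rps27rt had a log2 ratio of 0.33 (adjusted p = 0.00492, exact binomial test), but the test takes its expected count as observed reads, and the uncertainty of that count given above, with 0 in both alignment-free tables, limits this call. Liver, erythroid and muscle markers differed between the same libraries by median log2 ratios of -4.77, -0.79 and -0.81, and their part in the difference of Rpl9 was not tested. The biological coefficient of variation from edgeR was 0.23 over all genes kept, and its gene-wise estimate had a median of 0.16 over main copies. That estimate is drawn towards the trend fitted over all genes, whose median over main copies was 0.19. It is therefore not a spread measured on the main copies alone, whose log2 ratios between the libraries had an SD of 0.07.

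**Figure D5:**
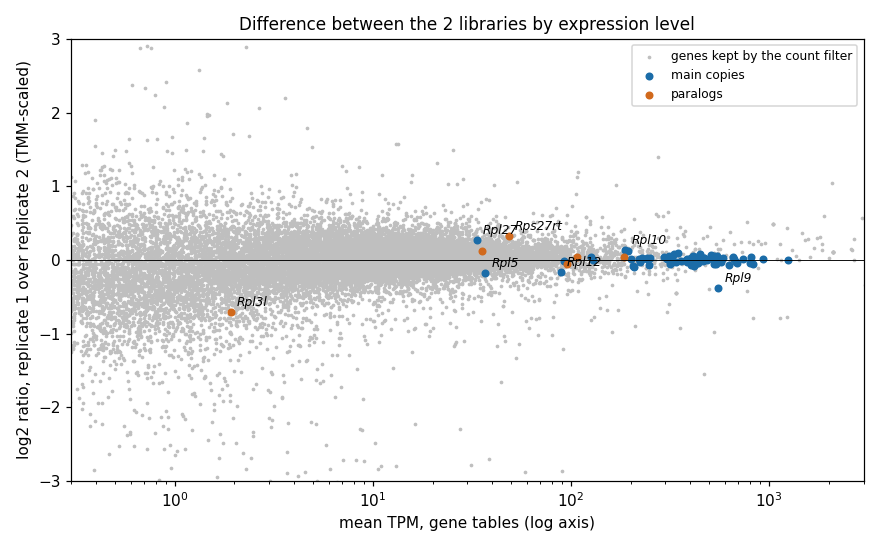
Log2 ratio of TMM-scaled counts, replicate 1 over replicate 2 (vertical), against mean TPM (horizontal, log axis) for the genes kept by the count filter (grey), main copies and paralogs. Main copies lie close to 0, with Rpl9 at -0.38 the furthest, and Rpl3l is the paralog furthest from 0 at -0.71; genes beyond the axes, and Rpl10l and Rpl39l, which did not pass the count filter, are not drawn.

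Promoters from RefSeq (GRCm38.p6, 250 bases before to 50 after the annotated start) were at hand for 66 members, 57 of them main copies and 8 paralogs. Motifs were searched as letters on both strands, apart from the TOP-like start, which was a C followed by at least 4 of C or T on the gene's strand beginning within 5 bases of the annotated start. A TOP-like start was present for 27 of 57 main copies (47.4%) and 3 of 8 paralogs (37.5%), beside 21.2% of the 27025 genes in the table. With at least 6 of C or T these shares were 38.6%, 12.5% and 7.64%. CCGGAAG, a sequence that ETS factors such as Gabpa bind, was found for 42.1% of main copies, 25.0% of paralogs and 9.93% of all genes. CTCGCGAG occurred for 12.3%, 0% and 1.04%, GGGCGG, the core of an Sp1 site, for 61.4%, 62.5% and 38.2%, and AAGATGGC, the core of a Yy1 site, for 8.77%, 12.5% and 3.19%. TATAAA was the one motif less frequent in main copies, at 10.5%, than in all genes, at 15.7%, with 12.5% of paralogs. A match is a description of the letters in these windows.

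The 30 bases around an annotated start are shown, 15 before it and 15 from it, for members on which the paralog comparison turns. The pyrimidine run of a TOP-like start is in capitals, with none where the rule found none. For a gene with several annotated starts, a start with such a run was taken for display where there was any. Rps27, Rps27rt and Rps27l carry such a run and so does Rpl22l1, while Rpl22, Rpl3l and Rpl10l do not within 5 bases of the start. Allowing 10 bases, a run was found for Rpl22, Rpl3l and Rpl10l too, counting every annotated start of a gene. Rpl13a is shown as a highly expressed main copy, and its run goes on past the window. The windows lie at chr9:66946071-66946100 (plus), chr9:114982725-114982754 (minus), chr3:90213634-90213663 (minus), chr3:28805493-28805522 (plus), chr4:152325711-152325740 (plus), chr17:24727811-24727840 (plus), chr12:66284387-66284416 (minus) and chr7:45128731-45128760 (minus), in the order given.
Rps27l: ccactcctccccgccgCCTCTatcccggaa
Rps27rt: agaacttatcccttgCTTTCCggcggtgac
Rps27: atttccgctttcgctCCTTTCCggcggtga
Rpl22l1: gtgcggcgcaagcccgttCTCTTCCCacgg
Rpl22: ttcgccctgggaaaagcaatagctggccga
Rpl3l: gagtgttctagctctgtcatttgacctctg
Rpl10l: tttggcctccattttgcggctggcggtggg
Rpl13a: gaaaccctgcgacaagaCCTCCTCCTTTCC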

How the data were processed

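Total RNA (300 ng) depleted of ribosomal RNA was sequenced with a strand-keeping kit and ERCC spike-ins, per the labels' protocols. Each library had 3 deposited tables. The gene table and the alignment-based transcript table hold expected counts and TPM made by the authors, in the layout of RSEM per the file headers, with posterior SDs of the counts. The alignment-free transcript table holds estimated counts and TPM, deposited in the layout of kallisto. Program versions: not given in the sources used here. Transcript names and mm10 coordinates follow GENCODE M21.

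Members and gene lists were chosen with earlier results of these data known. Expected counts were rounded to whole numbers. The 26248 rows named by numbers, which held 3 and 2 counts, stayed out, and spike-ins took 1.06% of counts in each library. With 1 group there was no contrast between conditions, and each gene's counts in the libraries went into an exact binomial test, two-sided (scipy 1.17.1), against TMM library sizes (edgeR 4.0.16), Benjamini-Hochberg adjusted, at a threshold of 0.05, with a prior count of 0.5 in log2 ratios. The script was tested on simulated data. The genes named were every paralog with its main copy, the 5 highest and lowest main copies of each subunit, 2 to 4 of each role list, the 3 main copies furthest apart each way between libraries, the 5 furthest apart each way between tables, the 5 with most TPM outside coding transcripts and the 2 highest genes of other lists. Some items that this rule names are not reported here. Other genes, among them the named pseudogenes, Rps18 and the transcripts of Rps27, were chosen after their values were seen. Alternatives covered the table, scaling, filter, pseudocount, denominator, pseudogenes and each library left out.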

Additional observations from a re-analysis of the deposited data

How the results depend on the processing

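Over 22 results and 139 alternative values, 105 were counted as kept, on the same side of the threshold and within the spread in size. Of the rest, 28 moved by more than that, 3 lost their call (Rpl12 with alignment-free counts, Rpl37 with total and with spike-in counts as library size) and 3 reversed. Among the 105, the main copies' median log2 ratio between libraries changed sign, from 0.008 to -0.022 with total counts and -0.021 with spike-in counts. The TOP-like share of main copies also counted as kept, at 35.1% within 2 bases, 59.6% within 10 bases and 38.6% with at least 6 pyrimidines. Its spread was a 95% Wilson interval over genes, which does not measure a change of definition. All 3 values counted as reversed were of the log2 ratio of Rpl36al over Rpl36a (0.56, or 0.69 with counts in place of TPM). It was -0.55 with alignment-free TPM, -1.03 with pseudogenes named -ps added and -0.999 with pseudogenes sharing 100-base stretches added. Adding pseudogenes by shared stretches of 100 or 50 bases was chosen after seeing the data. The median TPM of main copies was 941 with alignment-free TPM, 1097 over protein-coding genes only, 484 with -ps genes and 533 or 541 with genes sharing 100 or 50 bases added, and 404 to 428 leaving out each library. The members' percent of TPM was 7.92, 8.70, 3.91, 4.44 and 4.47 in the same order, and 3.24 to 3.45 leaving out each library. With alignment-free TPM and with counts, the log2 ratio of Rpl22l1 was -0.87 and -1.85, of Rps27l -2.78 and -2.41 and of Rpl7l1 -3.78 and -2.64. With -ps genes and with genes sharing 100 bases added, Rpl7l1 was at -3.96 and -3.95 and Rpl3l at -8.28 and -8.285, and Rpl3l at -7.81 to -7.12 leaving out each library. The log2 ratio of small to large subunit medians was 0.053 alignment-free, 0.27 with counts, 0.17 and 0.13 with those pseudogenes, and 0.21 to 0.26 leaving out each library. The percent of TPM outside coding transcripts was 33.7 alignment-free and 15.9 with counts, and 38 members exceeded 20% alignment-free. The cause was not tested. No paired analysis was possible because the series has 1 group. With 2 libraries, SDs are imprecise, and counts of 0 and 1 limit what can be said of Rpl10l and Rpl39l.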
